A study of Mus musculus with 6 samples.

Results

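The 43 genes described here serve the uptake, storage and beta-oxidation of long-chain fatty acids in the mouse heart. They were chosen by name for their role and found through the transcript accession of their array probes. They are 43 of the 22811 genes with a symbol on the array. Each was represented by its brightest probe, all 43 were among the 14697 genes bright enough to be tested, and the probes of all 43 were well above background on all 6 arrays.

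The animals were male C57BL6 mice, 10 weeks old. All were starved for 16 h and then received lipopolysaccharide (LPS), the bacterial endotoxin, at 20 mg/kg into the peritoneum. A group of 3 mice was then given saline and another group of 3 mice was given recombinant human thrombomodulin (rhTM), each at 3 and 24 h after LPS. Thrombomodulin is the endothelial receptor that binds thrombin and promotes the activation of protein C. RNA was taken from the heart at 30 h, and each mouse was measured on 1 one-colour Agilent array. Because every mouse was starved and given LPS, each value compares rhTM with saline in that setting, and no comparison with an untreated heart was made. The study asked how rhTM given after LPS altered the injured heart.

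The heart draws most of its energy from fatty acids. Lipoprotein lipase frees them from circulating triglyceride at the capillary wall, CD36 and fatty acid binding proteins carry them into and through the cell, and acyl-CoA synthetases activate them. The acyl groups then enter mitochondria through the carnitine shuttle and are shortened by beta-oxidation, or they are stored as triglyceride in droplets coated by perilipins. The fatty acid receptor PPAR-alpha, paired with RXR, switches on many of these genes, and starvation raises its activity while endotoxin is known to lower fatty acid oxidation in the heart.

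Promoter sequences were set out for the members whose proximal promoter held a match to the element bound by PPAR with RXR. That element is a direct repeat of AGGTCA with 1 base between the copies, and both strands were searched. RefSeq promoter sequence (250 bases before to 50 after the start, GRCm38.p6) was at hand for 33 of the 43 genes. With at most 2 mismatches, 5 of these 33 (15.2%) held a match, beside 3.82% of the 11646 tested genes that had a promoter in the table and 3.86% of all 32851 promoters in it. With at most 1 mismatch, 0 of the 33 held one, beside 0.515% of the tested genes with a promoter. The 4 members with a match before the start are shown because Plin2, Cd36 and Etfa are among the genes whose groups were apart and Echs1 is a beta-oxidation enzyme that was not. The fifth, in Slc25a20, lay after the start. Capitals mark the 13 bases of the match within 61 bases, written 5′ to 3′ on the strand of the gene.
Plin2 (chr4:86670248-86670308, minus strand, match at -225 to -213 from the start): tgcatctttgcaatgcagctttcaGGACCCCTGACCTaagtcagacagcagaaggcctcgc
Cd36 (chr5:17835923-17835983, minus strand, match at -63 to -51): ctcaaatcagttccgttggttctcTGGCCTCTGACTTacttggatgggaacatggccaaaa
Echs1 (chr7:140116468-140116528, minus strand, match at -83 to -71): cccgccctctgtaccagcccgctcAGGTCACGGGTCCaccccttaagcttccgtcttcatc
Etfa (chr9:55512284-55512344, minus strand, match at -77 to -65): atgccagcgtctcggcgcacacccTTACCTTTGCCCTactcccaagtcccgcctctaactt
The match in Echs1 reads along the gene's strand, and those in Plin2, Cd36 and Etfa lie on the opposite strand. The extended copy TCAAGGTCA, the element of estrogen-related receptors, was in 0 of the 33 promoters and in 0.335% of those of the tested genes. A single AGGTCA, which the exact repeat and the extended copy contain, was in 7 of the 33 (21.2%) and in 15.7% of the tested genes. A match describes these letters in this window and was not tested as a binding site.

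Each value below is a log2 processed signal minus that of the 75th percentile on the same array, given in the order saline 1, 2, 3 and then rhTM 1, 2, 3. A change is the rhTM mean minus the saline mean on this scale, with the standard error of the fit (n = 3 and 3). Adjusted p-values come from limma with Benjamini-Hochberg adjustment over all 14697 genes, and a gene is called at an adjusted p under 0.05. The arrays were not evenly placed. Saline 1 and 2 were on slide 1, and saline 3 was on slide 2 with all 3 rhTM arrays. With the slide as a block, the change is therefore the rhTM mean minus saline 3 alone, and this within-slide value is printed beside the results. Signal was also brighter on slide 1, where the 75th percentile was 732 and 671, against 394 for saline 3 and 412 to 466 for rhTM. The linear fit of the spike-in controls had an R2 of 0.990 and 0.987 on slide 1. On slide 2 it was 0.845 for saline 3 and 0.865 to 0.881 for rhTM. Of 59305 spots per array besides controls, 54.8% to 62.8% were well above background. Levels of different genes come from different probes and are not compared with each other.

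With rhTM, 1 of the 43 genes was called higher, the thioesterase gene Acot13, and 0 were called lower. At an unadjusted p under 0.05 limma counted 4 higher (Fabp3, Acadm, Etfa and Acot13) and 5 lower (Gpihbp1, Cd36, Acsl5, Plin2 and Dgat1), beside 15.1% and 15.6% of all genes tested at that threshold. At an adjusted p under 0.05, over all genes tested, 2.77% were called higher and 2.43% lower, so that 1 called gene among 43 is near the background. The changes of 20 members lay above 0 and those of 23 below, with a median of -0.07 beside 0.01 over all genes tested. With the slide as a block, 30 lay above 0 and 13 below, the median was 0.23, and the only call was Acsl4, lower. In that fit 3.83% of all genes were called higher and 1.95% lower. In the fit pairing mice by number, 5 members were higher and 9 lower at an unadjusted p under 0.05, beside 18.4% and 17.7% of all genes, and 0 were called. In whole heart tissue, fewer cells of a type and less RNA per cell cannot be told apart.

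All 3 rhTM arrays lay above all 3 saline arrays for 3 members (Fabp3, Etfa and Acot13) and below them for 6 (Gpihbp1, Cd36, Acsl5, Plin2, Dgat1 and Mgll). The groups overlapped for the other 34. Over all genes tested, 17% had every rhTM array above every saline array and 18.7% had every one below, so neither count exceeds the background share. A change of at least 2-fold was estimated for 3 members, Plin2, Gpihbp1 and Acot1, none of which was called.

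**Figure D1:**
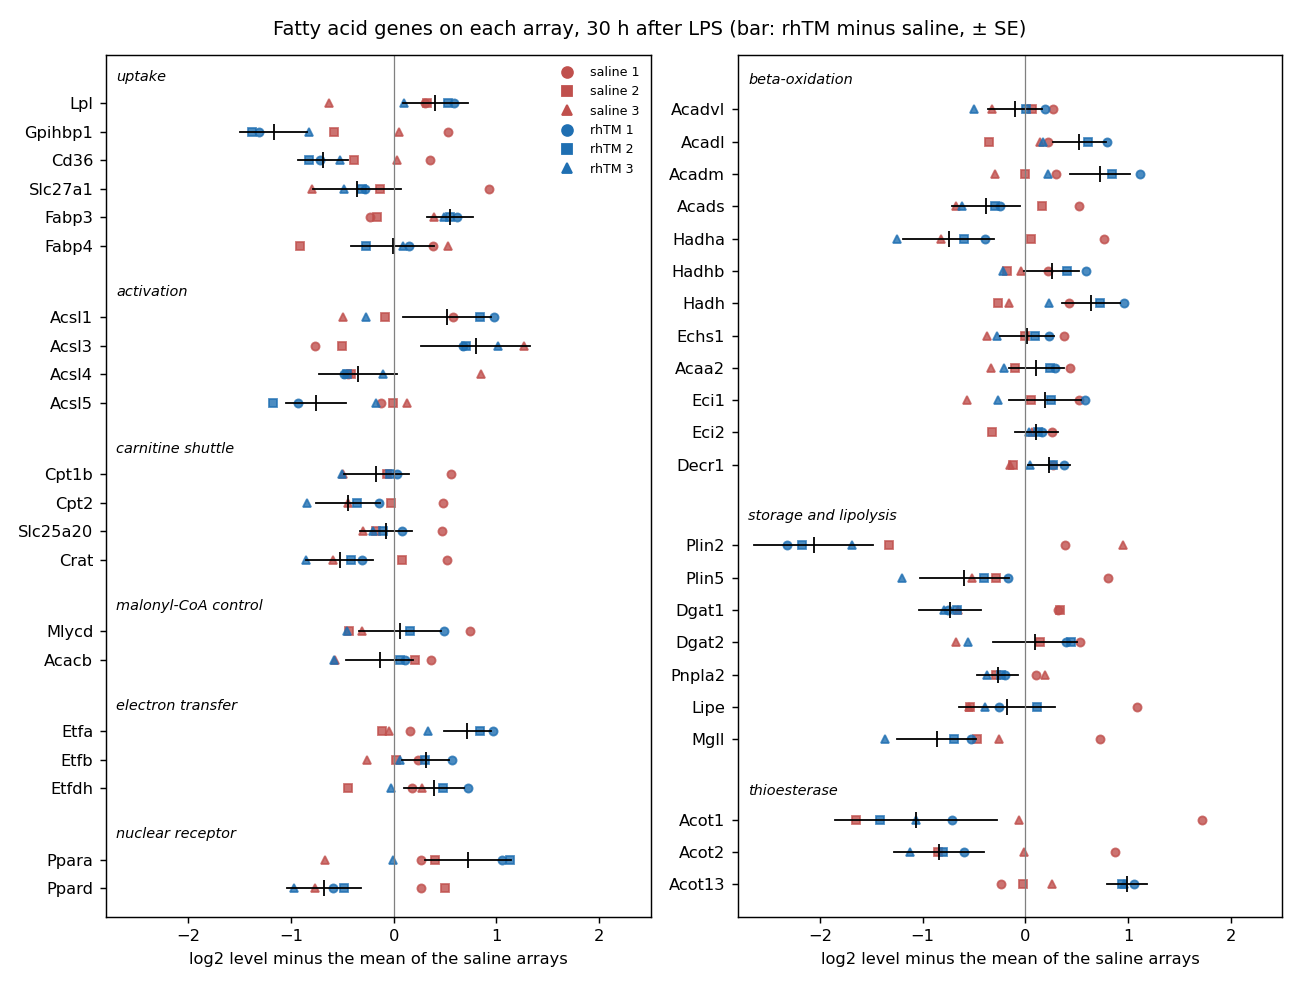
Each point is 1 array and shows the log2 level of a gene minus the mean of its 3 saline arrays. The black tick and bar give the change with rhTM and its SE (n = 3 and 3). Plin2 and Gpihbp1 lie farthest to the left among genes whose groups do not overlap, at -2.06 and -1.17, and Acot13 farthest to the right, at 0.99.

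Acot13 was the called member. It encodes a mitochondria-associated thioesterase that splits long-chain acyl-CoA into free fatty acid and CoA. Its levels were 6.57, 6.78 and 7.06 with saline and 7.86, 7.74 and 7.76 with rhTM. The highest saline array lay below the lowest rhTM array, and the rhTM arrays spread less (SD 0.06) than the saline arrays (SD 0.25). The change was 0.99 ± 0.20, or 1.98-fold, with an adjusted p of 0.045 by limma. Within slide 2 the change was 0.73 (adjusted p 0.073). When mice of the same number were paired, the change stayed 0.99 and the adjusted p was 0.061. The call ended when any array but saline 3 was left out: the adjusted p was 0.161 without saline 1, 0.126 without saline 2, 0.203 without rhTM 1, 0.213 without rhTM 2 and 0.065 without rhTM 3, with changes of 0.87 to 1.01. Without saline 3 the change was 1.12 and the adjusted p 0.0051.

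The other thioesterase members are the cytosolic Acot1 and the mitochondrial Acot2, close paralogs whose probes may not separate their transcripts. Both are known PPAR-alpha targets. Acot1 read 4.01, 0.64 and 2.23 with saline and 1.58, 0.88 and 1.23 with rhTM. Its saline SD of 1.68 was the largest of the 43, and the rhTM arrays lay inside the saline range. The change of -1.06 ± 0.79 had an adjusted p of 0.381. Acot2 followed the same order of saline arrays, at 3.89, 2.17 and 3.00, with 2.42, 2.22 and 1.90 for rhTM (change -0.84 ± 0.43, adjusted p 0.232). Within slide 2 the changes of Acot1 and Acot2 were -1.001 and -0.82.

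Of the genes that bring fatty acids into the cell, 0 of 6 were called, and their changes ran from -1.17 to 0.55. Gpihbp1 encodes the endothelial protein that holds lipoprotein lipase at the capillary lumen. It read 5.37, 4.26 and 4.90 with saline and 3.53, 3.47 and 4.02 with rhTM. Every rhTM array was below every saline array, with the closest pair 4.02 in rhTM 3 and 4.26 in saline 2. The change was -1.17 ± 0.33, or 2.25-fold, with an adjusted p of 0.082, and within slide 2 it was -1.22 (adjusted p 0.155).

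Cd36 encodes the main fatty acid translocase of cardiomyocytes and capillary endothelium. It read 5.78, 5.05 and 5.47 with saline and 4.72, 4.61 and 4.91 with rhTM. The groups did not overlap, but saline 2 and rhTM 3 were 5.05 and 4.91. The change of -0.69 ± 0.24 had an adjusted p of 0.121 and was -0.72 within slide 2 (adjusted p 0.195). Because Gpihbp1 and Cd36 are also expressed by endothelium, the endothelial markers were read beside them. Of 10 endothelial marker genes, 0 were called in either direction, and the mean of the list ran from 1.67 to 2.05 over the saline arrays and from 1.55 to 1.72 over the rhTM arrays. Of their changes, 8 were below 0 and 2 above, and the rhTM arrays of Cldn5 (-1.17, adjusted p 0.066) and Pecam1 (-1.08, adjusted p 0.111) all lay below the saline arrays. The part of endothelial content in the values of Gpihbp1 and Cd36 was not tested.

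Fabp3, the fatty acid binding protein of heart muscle, read 8.58, 8.65 and 9.21 with saline and 9.43, 9.36 and 9.30 with rhTM. Saline 3 lay next to the rhTM arrays and away from the other saline arrays. The change over all arrays was 0.55 ± 0.22 (adjusted p 0.155), and within slide 2 it was 0.16 (adjusted p 0.543). A second Fabp3 probe gave 0.56. Without saline 3 the change was 0.75 and Fabp3 was called (adjusted p 0.011).

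Lpl, the lipase itself, read 7.23, 7.26 and 6.30 with saline and 7.52, 7.46 and 7.03 with rhTM. Here saline 3 was the low array, and the change was 0.40 ± 0.32 over all arrays and 1.03 within slide 2 (adjusted p 0.407 and 0.070). The other Lpl probes gave 0.15 and -0.03. Slc27a1, a fatty acid transport protein with synthetase activity, had a change of -0.36 ± 0.43, and Fabp4, the binding protein of adipocytes and capillary endothelium, one of -0.01 ± 0.41 with a 95% interval of -0.98 to 0.96. The intervals of Lpl, Slc27a1 and Fabp4 therefore leave room for changes in either direction. Within slide 2, Slc27a1 was at 0.44 and Fabp4 at -0.54.

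Acyl-CoA synthetases attach CoA to the fatty acid and so commit it to oxidation or storage. Of these 4 genes, 0 were called over all arrays. Acsl5, an isoform found on mitochondria and the endoplasmic reticulum, read 0.35, 0.47 and 0.61 with saline and -0.45, -0.69 and 0.31 with rhTM. The groups were apart only by the distance between 0.31 in rhTM 3 and 0.35 in saline 1. The change was -0.76 ± 0.29 with an adjusted p of 0.141, and without rhTM 3 it was -1.05 with an adjusted p of 0.0498.

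Acsl4, which prefers arachidonate, was the member called within slide 2. It read 1.46, 1.49 and 2.76 with saline and 1.42, 1.45 and 1.80 with rhTM. Saline 3 stood above the other 5 arrays, which gave a change of -0.35 ± 0.38 over all arrays (adjusted p 0.551) and of -1.20 against saline 3 alone (adjusted p 0.043). Without saline 3 the change was 0.08. The other Acsl4 probes gave -1.25 and -0.88 over all arrays. Acsl1, the main isoform of heart muscle, had a change of 0.52 ± 0.42 (1.02 within slide 2). Acsl3, of the endoplasmic reticulum and lipid droplets, went from 0.80 ± 0.53 over all arrays to -0.47 within slide 2.

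The carnitine shuttle carries the acyl group across the inner mitochondrial membrane. Its 4 members, the outer membrane transferase Cpt1b, the inner transferase Cpt2, the translocase Slc25a20 and the acetyltransferase Crat, had 0 calls. All 4 changes were below 0 over all arrays, from -0.52 to -0.07, and all 4 were above 0 within slide 2, with medians of -0.31 and 0.15. The gene with the lowest p was Crat, at 6.09, 5.65 and 4.99 with saline and 5.27, 5.16 and 4.72 with rhTM. The groups overlapped because saline 3 was lower than 2 of the rhTM arrays. Its change was -0.52 ± 0.32 over all arrays and 0.07 within slide 2 (adjusted p 0.301 over all arrays). For Cpt1b, the muscle isoform of the step that limits entry, the change was -0.17 with a 95% interval of -0.92 to 0.59.

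Malonyl-CoA blocks that entry step. It is made by the mitochondrial-surface carboxylase Acacb and removed by the decarboxylase Mlycd. Acacb, with the lower p of the pair, read 4.41, 4.26 and 3.48 with saline and 4.17, 4.11 and 3.47 with rhTM. The groups covered the same range, with the third array lowest in both. The changes were -0.14 ± 0.33 for Acacb and 0.06 ± 0.40 for Mlycd (adjusted p 0.798 and 0.928), and within slide 2 they were 0.43 and 0.37. Neither direction is settled by the probes, since another Acacb probe gave 1.26 and another Mlycd probe -0.33.

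Beta-oxidation proper was covered by 12 genes. They include the chain-length acyl-CoA dehydrogenases Acadvl, Acadl, Acadm and Acads and the trifunctional protein subunits Hadha and Hadhb. The others are the short-chain enzymes Hadh and Echs1, the thiolase Acaa2, and Eci1, Eci2 and Decr1, which handle unsaturated chains. Of the 12 genes, 0 were called and the groups of all 12 overlapped. The changes ran from -0.75 to 0.72 with a median of 0.15, 9 above 0 and 3 below, and within slide 2 all 12 were above 0 with a median of 0.38. Under quantile normalisation 6 were above 0 and 6 below, so the split of directions moves with the scaling.

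The lowest p among them was that of Acadm, the medium-chain acyl-CoA dehydrogenase. It read 6.38, 6.08 and 5.79 with saline and 7.19, 6.93 and 6.30 with rhTM. Only rhTM 3 fell inside the saline range. The change was 0.72 ± 0.29 (adjusted p 0.154) and 1.02 within slide 2 (adjusted p 0.143). Hadh, the short-chain 3-hydroxyacyl-CoA dehydrogenase, had a change of 0.64 ± 0.29 and Acadl, the long-chain dehydrogenase, one of 0.53 ± 0.26, with adjusted p of 0.186 and 0.212. Within slide 2 these were 0.79 and 0.38.

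At the other end was Hadha, the large trifunctional subunit, at 3.89, 3.19 and 2.31 with saline and 2.73, 2.53 and 1.88 with rhTM. Its change of -0.75 ± 0.44 (adjusted p 0.279) became 0.07 against saline 3. Its partner Hadhb, which acts in the same complex, had a change of 0.25 ± 0.26, and 0.30 within slide 2. For Acadvl, the very long-chain dehydrogenase, the change was -0.10 with an interval of -0.74 to 0.53, and for Echs1, the short-chain hydratase whose promoter match is shown above, it was 0.01 with an interval of -0.61 to 0.64. The remaining changes were -0.39 for Acads, 0.11 for Acaa2, 0.19 for Eci1, 0.10 for Eci2 and 0.23 for Decr1, and within slide 2 they were 0.29, 0.44, 0.76, 0.040 and 0.38. Another Eci2 probe gave -0.36.

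The electrons of the dehydrogenases pass through the flavoprotein made of Etfa and Etfb to the oxidoreductase Etfdh and on to ubiquinone. All 3 changes were above 0, both over all arrays (median 0.39) and within slide 2 (median 0.57), and 0 were called. Etfa read 5.90, 5.62 and 5.70 with saline and 6.70, 6.58 and 6.08 with rhTM. Every rhTM array lay above every saline array, with rhTM 3 nearest to the saline group. The change was 0.71 ± 0.23, or 1.64-fold, with an adjusted p of 0.104, and 0.76 within slide 2 (adjusted p 0.159). The other Etfa probes gave 0.44 and 0.66. Etfb and Etfdh had changes of 0.31 ± 0.23 and 0.39 ± 0.29 (0.57 and 0.12 within slide 2), with groups that overlapped.

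Genes of the lipid droplet and of triglyceride synthesis and breakdown numbered 7, of which 0 were called, 6 had changes below 0 and 1 above. Their median was -0.59 over all arrays and -0.08 within slide 2. Plin2 encodes the perilipin that coats droplets in most cells and is known to follow the lipid load. It read 4.91, 3.21 and 5.48 with saline and 2.21, 2.36 and 2.84 with rhTM. The groups were apart, but saline 2 lay closer to the rhTM arrays than to the other saline arrays. The change of -2.06 ± 0.58, or 4.17-fold, was the largest of the 43, with a 95% interval of -3.44 to -0.68 and an adjusted p of 0.082.

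Plin2 kept this direction in all 17 alternatives, from -3.01 to -1.59. Within slide 2 it was -3.01 (adjusted p 0.062), without saline 2 it was -2.72 and called (adjusted p 0.047), and without rhTM 1 it was -1.93 (adjusted p 0.262). The other Plin2 probe gave -1.17.

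Dgat1, an acyltransferase of the last step of triglyceride synthesis, read 0.92, 0.93 and -0.06 with saline and -0.16, -0.07 and -0.20 with rhTM. Saline 3 was level with the rhTM arrays, and the difference lay with the saline arrays of slide 1. The change was -0.74 ± 0.30 over all arrays (adjusted p 0.158) and -0.08 within slide 2 (adjusted p 0.756). Mgll, the monoacylglycerol lipase, read 4.43, 3.23 and 3.44 with saline and 3.17, 3.00 and 2.33 with rhTM. The groups were apart by the distance between 3.17 and 3.23, and the change was -0.86 ± 0.38 (adjusted p 0.182). Among the rest, Plin5, the perilipin of oxidative tissue, had a change of -0.59 over all arrays and -0.077 within slide 2. Pnpla2, the adipose triglyceride lipase, had -0.27 and -0.46, Lipe, the hormone-sensitive lipase, -0.18 and 0.37, and the second acyltransferase Dgat2 0.091 and 0.77.

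The nuclear receptors were not called. Ppard, with the lower p, read 1.81, 2.05 and 0.78 with saline and 0.96, 1.07 and 0.58 with rhTM. Saline 3 lay among the rhTM arrays, and the change was -0.68 ± 0.36 (adjusted p 0.244) over all arrays and 0.09 within slide 2. Ppara read 2.68, 2.82 and 1.74 with saline and 3.46, 3.54 and 2.40 with rhTM. In both groups the third array was the lowest, so the groups overlapped. Its change was 0.73 ± 0.42 (adjusted p 0.275) over all arrays and 1.39 within slide 2 (adjusted p 0.126), and a second Ppara probe gave 1.13.

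**Figure D2:**
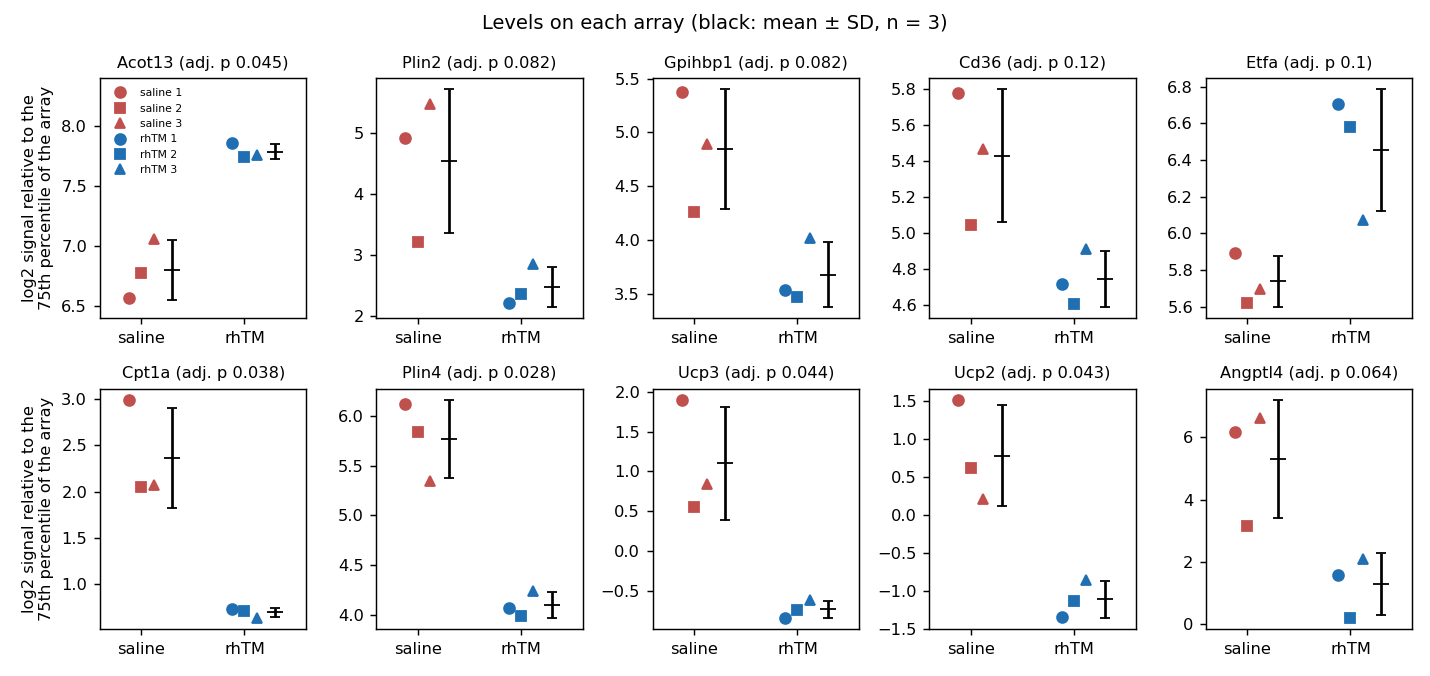
Log2 signal relative to the 75th percentile of the array for 5 members (top) and 5 further genes of fatty acid metabolism (bottom), 1 point per array, with the mean ± SD of each group in black (n = 3). In every panel the saline and rhTM arrays do not overlap, and the spread of the saline arrays is wide for Plin2 (3.21 to 5.48) and Angptl4 (3.14 to 6.60).

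The members varied along the arrays as well as between the groups. Saline 1 was the highest saline array for 30 of the 43 genes, beside 27.9% of all genes tested, and saline 3 the lowest for 23, beside 45.0%. Among the rhTM arrays, rhTM 1 was the highest for 32 of the 43 (34.7% of all genes) and rhTM 3 the lowest for 34 (44.6%). The saline SD exceeded the rhTM SD for 33 of the 43 members, and for 71.0% of all genes. The median SD of the members was 0.54 over saline arrays and 0.29 over rhTM arrays, beside 0.38 and 0.21 over all genes.

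Cardiomyocyte markers varied along with them. The mean log2 level of 13 cardiomyocyte genes, Myh6, Myl2 and Tnnt2 among them, ran from 6.30 to 7.37 over the saline arrays, lowest in saline 3, and from 7.001 to 7.70 over the rhTM arrays, lowest in rhTM 3. Of these 13, 1 was called higher (Pln) and 0 lower. Their changes were above 0 for 10 and below 0 for 3, with a median of 0.41. Within slide 2 all 13 were above 0, with a median of 0.91. These markers of heart muscle were well detected. By contrast, Adipoq and Plin1 of white fat and Ucp1 of brown fat were well above background on 0 of the 6 arrays. Of the 9 white fat markers, Lep and Thrsp were well above background on all 6 arrays. Cfd and Cyp2e1 were so on 2 saline and 3 rhTM arrays, Retn on 3 and 1, Adrb3 on 2 and 1, and Cidec on 0 and 1. For the 5 white fat markers tested, 0 were called over all arrays, 4 changes were above 0 and 1 below, with a median of 0.25. Cidea was the 1 of 4 brown fat markers well above background on all 6 arrays. Neutrophil markers ran from 1.17 to 3.82 over saline and from -2.28 to 2.59 over rhTM arrays, highest in saline 3 and rhTM 3. Of these 8 genes, 0 were called, 7 changes were below 0 and 1 above. The median change was -3.46 over all arrays and -5.24 within slide 2. Macrophage markers ran from 1.39 to 2.19 and from 1.69 to 2.22, with 0 of 9 called. Of 7 pericyte and smooth muscle markers, Rgs5 was called higher (1.21, adjusted p 0.044) and Acta2 and Pdgfrb lower (-1.551 and -0.995, adjusted p 0.032 and 0.043), and the list's mean ran from 2.25 to 2.80 over saline and from 2.31 to 2.58 over rhTM arrays. Of 4 skeletal muscle markers tested, Myh4 was called higher (adjusted p 0.022), with a probe well above background on the rhTM arrays alone. The part of cell makeup in the results on fatty acid genes was not tested.

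**Figure D3:**
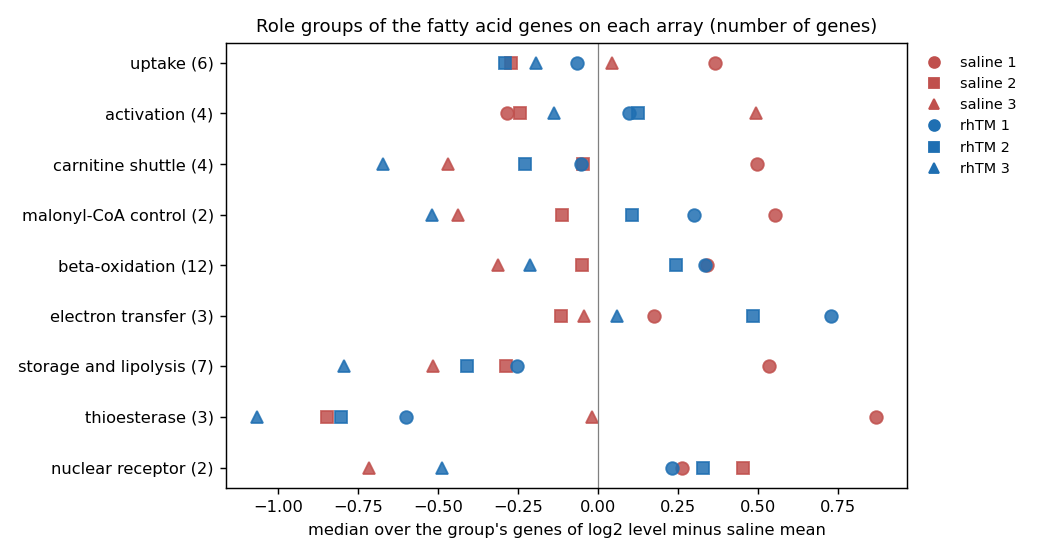
Median over the genes of each role of the log2 level minus the saline mean, for each array (number of genes in brackets). Saline 1 lies at the right for storage and lipolysis (0.53) and for the carnitine shuttle (0.50), saline 3 at -0.52 and -0.47, and the electron transfer genes show rhTM 1 and 2 at 0.73 and 0.48.

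Further genes of fatty acid metabolism, 116 in all and none of them among the 43, gave 103 genes bright enough to test. Of these, 0 were called higher and 5 lower, beside the background of 2.77% and 2.43%, and their median change was -0.04. The 5 were Plin4, Cpt1a, Ucp2, Ucp3 and Acsbg1. Acsbg1 was tested only through the saline arrays, where it is high, so its call adds nothing to this count. Without the filter on dim probes, which adds genes to the adjustment, the adjusted p of Plin4, Cpt1a, Ucp2 and Ucp3 were 0.060, 0.078, 0.084 and 0.087, and those calls were lost. Plin4, Cpt1a, Ucp2 and Ucp3 are known to respond to fasting or PPAR.

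Plin4, a perilipin of muscle and fat, read 6.12, 5.84 and 5.34 with saline and 4.06, 3.99 and 4.24 with rhTM. The gap between the groups exceeded the range within either. It fell by 1.67 ± 0.25 on the log2 scale (adjusted p 0.028), and by 1.25 within slide 2 (adjusted p 0.040). Within slide 2 Acsbg1 changed by -2.98, though none of its rhTM arrays was well above background.

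Cpt1a, the liver isoform of the carnitine entry step, read 2.99, 2.05 and 2.07 with saline and 0.73, 0.72 and 0.64 with rhTM. The rhTM arrays lay close together and below every saline array. It fell by 1.67 ± 0.29 (adjusted p 0.038), while the muscle isoform Cpt1b had a change of -0.17. The difference between the isoforms was not tested. Within slide 2 the change of Cpt1a was -1.37 (adjusted p 0.084).

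The mitochondrial uncoupling proteins Ucp2 and Ucp3 are carriers of the inner membrane. Ucp2 read 1.52, 0.61 and 0.21 with saline and -1.35, -1.14 and -0.85 with rhTM, and it fell by 1.89 ± 0.36 (adjusted p 0.043). Ucp3 read 1.90, 0.56 and 0.85 with saline and -0.84, -0.74 and -0.62 with rhTM, and it fell by 1.84 ± 0.36 (adjusted p 0.044). In both genes saline 1 was the highest array and every rhTM array lay below the saline range. The within-slide changes were -1.32 and -1.58 (adjusted p 0.100 and 0.111), and when mice of the same number were paired the adjusted p were 0.061 and 0.056. A second Ucp2 probe gave -1.60.

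The promoter of Ucp3 also held a match to the repeat with 2 mismatches, on the strand of the gene at -51 to -39. It is shown because Ucp3 is the gene among these 5 that held such a match.
Ucp3 (chr7:100472916-100472976, plus strand): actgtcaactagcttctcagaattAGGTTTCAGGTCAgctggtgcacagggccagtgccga
Over the 93 further genes with a promoter in the table, 10 (10.8%) held a match with at most 2 mismatches.

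Acsbg1, a synthetase of very long chains in brain and gonads, was well above background on 3 saline arrays and 0 of the 3 rhTM arrays. It was tested only through the group where it is high, so its call adds nothing to the count, and it was not tested where all arrays had to be above background. The fitted change of -2.38 (adjusted p 0.025) rests on rhTM values below the lowest detected signal. With those values raised to that signal, the level of Acsbg1 was at least 1.48-fold lower with rhTM. This bound was not tested. With normexp background its change was -0.58 (adjusted p 0.259). Leaving out any of saline 1, rhTM 1 or rhTM 2 ended the calls of all 5 genes, with adjusted p of 0.103 to 0.205. Without saline 2 the call of Acsbg1 held (adjusted p 0.047) and those of Plin4, Cpt1a, Ucp2 and Ucp3 did not (0.071 to 0.102). Without rhTM 3 those of Acsbg1 and Plin4 held (0.036 and 0.037), and those of Cpt1a, Ucp2 and Ucp3 did not (0.055 to 0.067). Without saline 3 all 5 were called.

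Angptl4, the secreted inhibitor of lipoprotein lipase and a known PPAR target, had the largest change among the further genes without a call. It read 6.18, 3.14 and 6.60 with saline and 1.57, 0.21 and 2.11 with rhTM. The closest arrays were saline 2 and rhTM 3, at 3.14 and 2.11, and within each group the second array was the lowest. The change was -4.01 ± 0.97 with an adjusted p of 0.064. It was -5.31 within slide 2 (adjusted p 0.072), and in the fit pairing mice by number it was called (adjusted p 0.039). Without saline 2 and without saline 3 it was called too, at -5.09 and -3.36 (adjusted p 0.047 and 0.048).

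By list, other genes with low p were not called. Among uptake genes, Fabp5, an endothelial and epidermal binding protein, had a change of 0.69 (adjusted p 0.104). Acaca, the cytosolic malonyl-CoA-forming carboxylase, had a change of -1.01 (adjusted p 0.066), and Cpt1c, the neuronal Cpt1 isoform, one of -0.88 (0.077). Lpin3, a phosphatidate phosphatase, had -1.06 (0.057), although a second probe, well above background on 2 of 6 arrays, gave 2.46. Agpat1, an acyltransferase of glycerolipid synthesis, had 0.73 (0.100). The thioesterases Acot9 and Acot10, close paralogs, had -1.37 and -1.15 (0.057 and 0.074), and Them4 had 0.63 (0.127).

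In peroxisomes, Acox2, the oxidase of branched chains, had a change of -1.64 (adjusted p 0.081). Decr2, the peroxisomal dienoyl-CoA reductase, had 0.89 over all arrays and -0.03 within slide 2 (0.182 over all arrays). Of 13 peroxisomal genes tested, 0 were called.

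Among 15 regulators of these genes, 0 were called over all arrays. The estrogen-related receptors, which drive mitochondrial and fatty acid genes, had changes of 1.15 for Esrrg and 0.72 for Esrra, with groups apart for both (adjusted p 0.086 and 0.087), and Esrrg was called in the fit pairing mice by number (0.047). With the slide as a block 5 further genes were called higher and 5 lower, and these were named after that fit was seen. The higher were Ppargc1a, the coactivator of PPAR and estrogen-related receptors, at 2.61, Rxrg at 2.29 and Klf15, a heart regulator of lipid use, at 1.25. Pnpla3, at 2.82, and Acsm5, at 2.58, were higher too. Acsm5 was well above background on 2 saline and 3 rhTM arrays, so it was tested only through the group where it is high. Its saline 3 value of -6.32 lay below the lowest detected signal of that array (-4.35), so its 2.58 rests on an undetected level and adds nothing. The lower were Hif1a at -2.06, Lpin2 at -1.54, the droplet protein Hilpda at -1.51, Plin4 and Acsbg1. In the fit pairing mice by number 2 of the 103 further genes tested were called higher, Esrrg and Ces1d. Called lower were 4, Acsbg1, Angptl4, Cpt1a and Plin4. Over all 14697 genes that fit called 357 higher and 242 lower.

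Ppargc1a is given in full as an example of a regulator with unlike values in the fits. It read 2.53, 2.58 and 0.62 with saline and 3.44, 3.43 and 2.83 with rhTM. All rhTM arrays were above all saline arrays, and saline 3 stood far below the other 5. The change was 1.32 ± 0.55 over all arrays (adjusted p 0.161) and 2.61 against saline 3 alone. Another Ppargc1a probe gave 1.12, and there the groups overlapped, with rhTM 3 (0.73) below saline 1 (0.85).

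**Figure D4:**
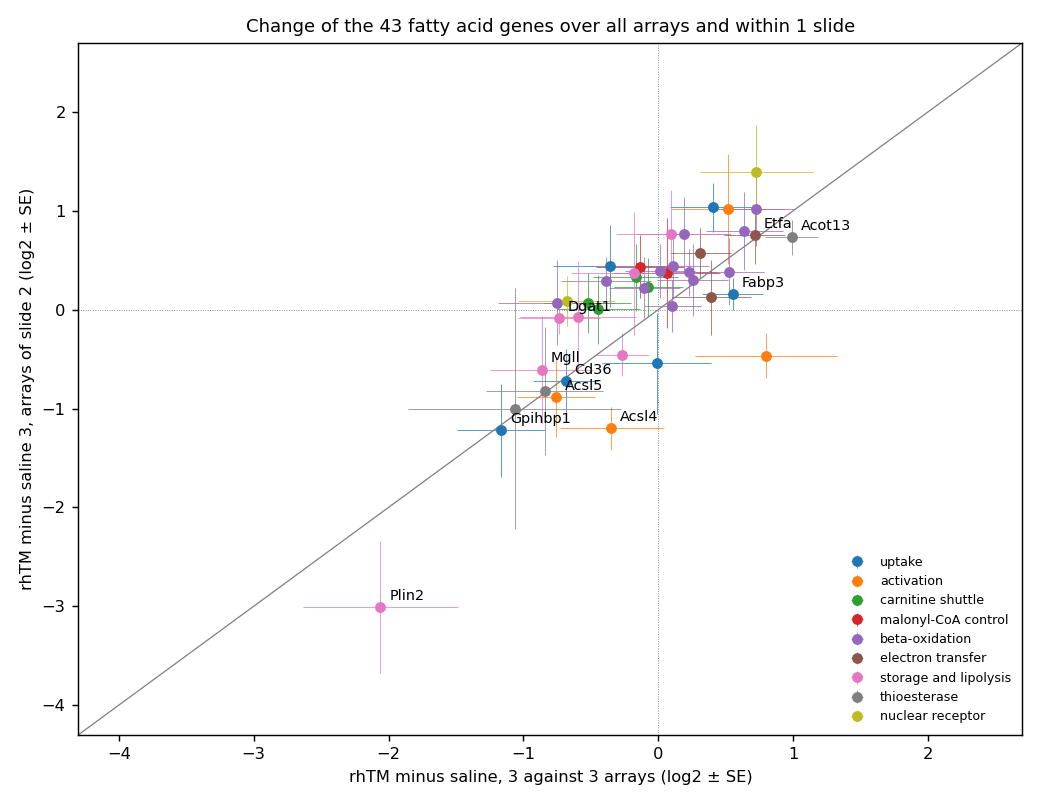
Change of each of the 43 genes with rhTM over all arrays (x axis, 3 against 3) and within slide 2 (y axis, 3 rhTM arrays against saline 3), both in log2 with SE, coloured by role. Plin2, Gpihbp1, Cd36, Acsl5, Etfa and Acot13 lie near the diagonal or beyond it, Dgat1 and Fabp3 lie near 0 on the y axis, and Acsl4 drops to -1.20.

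The 9 members whose groups did not overlap had to keep their direction in both fits. Their rhTM arrays all lie on 1 side of every saline array, saline 3 included, so the shared direction adds no support. The within-slide change was at least as large as the overall one for Plin2 (-3.01 against -2.06), Gpihbp1 (-1.22 against -1.17), Cd36 (-0.72 against -0.69), Acsl5 (-0.89 against -0.76) and Etfa (0.76 against 0.71). It was smaller for Acot13 (0.73 against 0.99), Mgll (-0.61 against -0.86), Fabp3 (0.16 against 0.55) and Dgat1 (-0.08 against -0.74). Both estimates share the rhTM arrays and saline 3, so they are not independent.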

How the data were processed

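The authors deposited spot intensity values, which are background-corrected signals from Agilent Feature Extraction 10.7.3.1 per the file headers (9.1 per the submitters' processing notes). The deposited value table holds log2 values, which the authors set against a baseline per probe that differed between slides (SD 0.824), so it served only as an alternative. Its column medians (saline 1, 2, 3, then rhTM 1, 2, 3) were -0.02, -0.16, 0.10, -0.08, 0.03 and 0.09.

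From the scanner values, log2 signal minus the array's 75th percentile was used. Control spots were dropped, as were the 368 of 56605 probes that on some array held no spot free of outlier flags. Probes were named through a RefSeq table (GRCm38.p6): 32784 had a symbol and 23453 had none. The brightest probe stood for a gene, tested if well above background on all arrays of a group. Groups came from the sample titles and limma 3.58.1 (R 4.3.3) was the test, checked on simulated data first. The number of arrays limits precision. The labels number separate mice 1 to 3 in each group. Deviations of same-numbered arrays correlated across genes at 0.319, 0.235 and 0.372, with no shared litter or day named. Among arrays of unlike number, saline 1 with rhTM 2 gave 0.314 and saline 2 with rhTM 1 gave 0.129. Unlike pairs that held saline 3 or rhTM 3 ran from -0.387 to -0.221. Because rhTM 2 correlated more with saline 1 than with saline 2, these values do not settle the pairing of arrays 1 and 2. The correlations of same-numbered arrays are the only basis for the replicate block. Values on all arrays are given for called members, members with groups apart and the lowest p of other roles, plus further members chosen after their values were seen. Of further lists, called genes and up to 3 per list are named, and some are not reported here, and of marker lists up to 3. The members and lists were chosen with earlier results of these data known.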

Additional observations from a re-analysis of the deposited data

How the results depend on the processing

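Every call among the 43 genes depended on the processing. Acot13 kept its direction in all 17 alternatives (0.73 to 1.12) and was called in 8 of them, while 23 of the 43 genes kept their direction in all 17. Members called higher numbered 0 with quantile normalisation, 0 without the filter on dim probes, 0 with the slide as a block, 9 with array weights and 7 with the deposited value table. Members called lower numbered 1, 12 and 5 with the slide as a block, array weights and the deposited table. With the replicate block, 0 members were called in either direction (limma). At an unadjusted p under 0.05 it gave 5 members higher and 9 lower, beside 18.4% and 17.7% of all genes. At an adjusted p it called 357 genes higher and 242 lower, and Acot13 was the only member whose call it changed. Over all genes, 407 were called higher and 357 lower in the comparison as reported, against 201 and 213 with normexp background, 132 and 19 without the filter, 4662 and 4579 with array weights, and 2205 and 2313 with the deposited table. Array weights ran from 0.092 for saline 3 to 9.1 for rhTM 2. Of all calls, 53.3% were higher as reported and 64.3% when arrays were centred on the median of the genes tested. Normexp ran on the median spot signal and was chosen after seeing the data.

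Leaving out 1 array at a time gave 0 to 3006 genes higher and 0 to 2806 lower, and 0 to 3 members higher and 0 to 5 lower. The upper ends came without saline 3, when Acot13, Fabp3 and Acsl3 were called higher and Crat, Acads, Hadha, Dgat1 and Ppard lower. Without rhTM 1, limma called 0 genes in either direction, with 1271 higher and 1314 lower at an unadjusted p under 0.05. The cause was not tested for any of these shifts or for the reversals that follow.

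The change reversed with quantile normalisation for Echs1 (-0.062), Acaa2 (-0.20), Eci2 (-0.026) and Dgat2 (-0.055). It reversed on median centring for Fabp4 (0.070) and Slc25a20 (0.0065), and with normexp for Fabp4 (0.019), Acacb (0.030) and Acadvl (0.036). The mean of all probes reversed Mlycd (-0.14), Acacb (0.56) and Eci2 (-0.13), and array weights reversed Mlycd (-0.069), Echs1 (-0.11) and Eci1 (-0.022). The slide as a block reversed Slc27a1 (0.44), Acsl3 (-0.47), Cpt1b (0.33), Cpt2 (0.0022), Slc25a20 (0.23), Crat (0.067), Acacb (0.43), Acadvl (0.22), Acads (0.29), Hadha (0.070), Lipe (0.37) and Ppard (0.087). The deposited table reversed Slc27a1 (0.30), Acsl3 (-0.020), Cpt1b (0.33), Slc25a20 (0.039), Crat (0.069), Acacb (0.55), Acadvl (0.22), Acads (0.26), Hadha (0.21) and Eci2 (-0.10). Leaving out 1 array reversed Slc27a1 (-0.76 to 0.11), Fabp4 (-0.47 to 0.26), Acsl4 (-0.57 to 0.079), Cpt1b (-0.41 to 0.11), Slc25a20 (-0.22 to 0.16), Mlycd (-0.16 to 0.43), Acacb (-0.42 to 0.086), Acadvl (-0.27 to 0.10), Echs1 (-0.17 to 0.20), Acaa2 (-0.061 to 0.32), Eci1 (-0.10 to 0.45), Eci2 (-0.058 to 0.24), Dgat2 (-0.25 to 0.42) and Lipe (-0.45 to 0.36).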
